A study of Mus musculus with 28 samples.

Results

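The 88 genes described here are the protein-coding transcripts whose level was lower after C2C12 myoblasts were moved to differentiation medium and was low at 60 h. At 96 h they stood above 60 h again, some only part of the way back to the starting level. They were chosen from 49089 genes of an RNA-seq count table, of which 22215 are protein coding and 7636 had a mean of at least 4 in growth medium (GM), on the scale log2(CPM + 1), where CPM is a gene's count scaled to its library's total. A member had GM and 96 h means both at least 0.7 above its 60 h mean, and a GM mean at least 0.3 above its 12 h mean. The condition on 60 h against GM alone was met by 1108 genes, the condition on 96 h against 60 h alone by 252, and both by 94, of which 6 failed the condition on 12 h. The 184 genes of other biotypes with a GM mean of at least 4 held none with this pattern. Since the means of GM, 12 h, 60 h and 96 h chose the members, differences among those 4 groups are descriptions and carry no test.

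C2C12 is an established mouse myoblast line, here labelled wild type. The 18 RNA libraries, 3 for each of 6 groups, came from cells in GM with 20% fetal bovine serum and from cells kept for 12, 24, 48, 60 or 96 h in differentiation medium (DM) with 3% horse serum, which replaced GM near confluence. These times are those of the sample titles, while the protocols in the labels name differing last time points. ATAC-seq (4 libraries) and Hi-C (6 libraries) covered GM and 60 h. The labels call the RNA replicates biological but do not say that they came from separate cultures, so that p-values measure only the spread between these libraries, which may be technical. Library totals ran from 24154680 to 36405121 counts. Summed CPM of 9 myogenic identity genes was between 689 and 736 in GM and between 5263 and 5629 at 96 h, while 4 adipocyte markers summed to at most 0.0876 CPM, 4 endothelial markers to at most 1.80 and 4 macrophage markers to at most 2.35 in any library. Summed fibroblast markers were between 20.3 and 27.0 CPM in GM and between 162 and 169 at 96 h, with Lum, Pi16 and Thy1 under 1 CPM in every library.

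Several members belong to the machinery that makes and controls transcripts. RNA polymerase II transcribes protein-coding genes, coactivators such as the p300 and CBP acetyltransferases and the KMT2 methyltransferases mark the chromatin at enhancers and promoters, and chromatin remodellers move nucleosomes. A second kind of member supplies amino acids: the transcription factor ATF4, whose translation increases when amino acids are short or the endoplasmic reticulum is stressed, is known to switch on amino acid transporters, aminoacyl-tRNA synthetases and enzymes of one-carbon metabolism. Myoblasts leave the cell cycle, fuse into myotubes and rebuild their matrix and cytoskeleton over the days sampled here.

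One library stood apart for these genes and touches every value given at 24 h. In the third 24 h library the members' median departure from the mean of the other 24 h libraries was 0.59 on the log2(CPM + 1) scale, against 0.02 for the 7636 genes. The first and second 24 h libraries departed from the others by -0.16 and -0.41, and the remaining 15 libraries by between -0.16 and 0.15. In 46 of the 88 members the third 24 h library was at least 0.5 above each of the other 24 h libraries, a pattern seen in 87 of the 7636 genes (1.14%). Those 46 genes are 52.3% of the members and 52.9% of the 87. No member showed the same gap in another library. The third library and its partners compared as follows: 28196227 counts against 28792164 and 34241145, 72.8% of counts in protein-coding genes against 71.2% and 71.0%, and 0.971% mitochondrial counts against 0.960% and 0.869%. The abundant small RNA genes Rn7s1 and Rn7s2 took 17.4% of its counts against 18.9% and 19.2%. What sets this library apart was not tested, and values at 24 h are given with and without it.

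**Figure D1:**
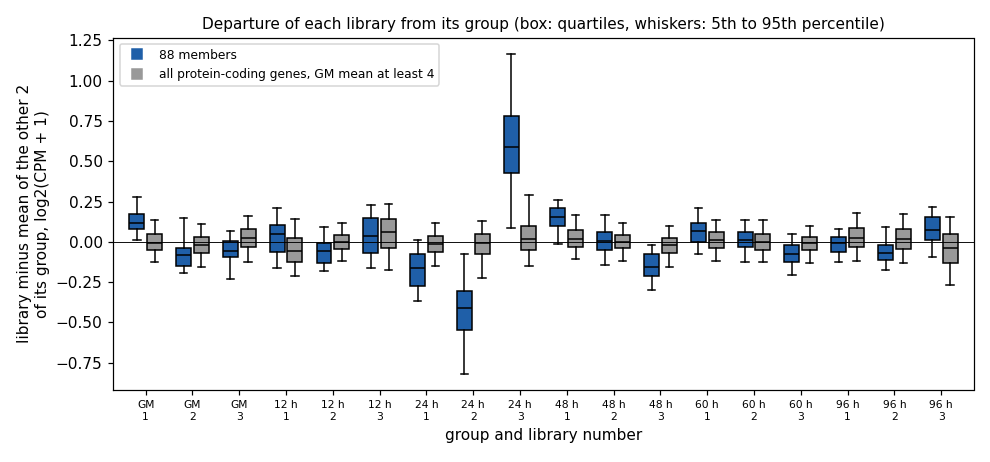
Each pair of boxes is 1 of the 18 RNA libraries; the y axis is its log2(CPM + 1) minus the mean of the other 2 libraries of its group, for the 88 members (blue) and for all 7636 protein-coding genes with a GM mean of at least 4 (grey). The members' box of the third 24 h library lies above 0, with a median of 0.59, while its grey box is centred near 0.

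Summed over the 88 genes, the members took 0.896% ± 0.051 of all counts in GM, 0.501% ± 0.011 at 12 h, 0.515% ± 0.034 at 48 h, 0.363% ± 0.011 at 60 h and 0.852% ± 0.040 at 96 h (mean ± SD, n = 3). At 24 h the libraries held 0.542%, 0.479% and 0.822%. The members' median level was 5.57 in GM, 4.80 at 12 h, 5.11 at 24 h (4.88 without the third library), 4.86 at 48 h, 4.26 at 60 h and 5.32 at 96 h. The members' median difference between 24 h and 12 h was 0.36 with all libraries and 0.11 without the third 24 h library, and the share of counts in the second 24 h library lay below that of every 12 h library. The 24 h mean was above the 12 h mean in 69 members (56 without that library), against 49.5% (48.6%) of the 7636 genes, and the rule, which asks for a low 12 h mean, favours such a rise. The 60 h mean was below the 12 h mean in all 88 members and below the 48 h mean in 84, which the choice of genes with a low 60 h mean also favours, so that nothing is read from these counts. The median difference between GM and 60 h was 1.14 (0.71 to 3.24), and that between 96 h and 60 h was 0.98 (0.71 to 2.57). Both differences follow from the rule.

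The make-up of the libraries differed between groups as well. Protein-coding genes held 65.5% ± 0.355 of counts at 60 h, 70.9% ± 0.613 in GM and 68.4% ± 0.981 at 96 h, and Rn7s1 with Rn7s2 held 23.8% ± 0.623, 19.8% ± 0.260 and 21.6% ± 1.46 (mean ± SD, n = 3). The third 96 h library, with 23.2% in Rn7s1 and Rn7s2, lay within the range of the 60 h libraries. The median of all 7636 genes was 0.14 lower at 60 h than in GM on library totals, and 0.03 lower on protein-coding totals. On protein-coding totals the members' median difference between GM and 60 h was 1.04. In bulk RNA a lower level in every cell and fewer cells holding a transcript cannot be told apart.

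**Figure D2:**
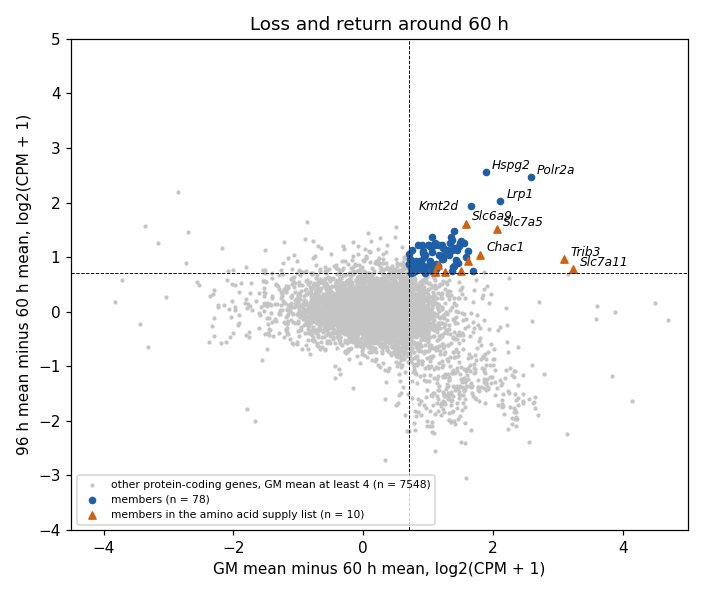
Each point is a protein-coding gene with a GM mean of at least 4; the x axis is its GM mean minus its 60 h mean and the y axis its 96 h mean minus its 60 h mean, both as log2(CPM + 1), with the limits of 0.7 dashed. The 78 members outside the amino acid supply list (blue) and the 10 in it (orange) fill the upper right, where Polr2a, Lrp1 and Hspg2 lie farthest from the limits on both axes and Trib3 and Slc7a11 lie far to the right.

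The rule used both GM and 96 h, so that the distance between them is given as a description only. The 96 h mean was within 0.3 of the GM mean in 62 members and in 43.0% of the 7636 genes, and the median difference was -0.11 in both sets. The 96 h mean was more than 0.3 above the GM mean in 6 members (Hspg2, Nav1, Vps13c, Wnk1, Sh3bp4 and Pcdh1) and more than 0.3 below it in 20. GM was the highest group for 51 members, 96 h for 32 and 24 h for 5, the last being Gm4070, Zfhx3, Raph1, Peak1 and Mast4. Without the third 24 h library only Gm4070 of those 5 had a 24 h mean above its GM mean, at 4.45 against 4.21. The lowest group was 60 h for 79 members and 24 h for 9. Members just inside the limit were Phf10 (0.71), Kmt2c (0.71) and Mast4 (0.71), where the value is the smaller of the differences between GM and 60 h and between 96 h and 60 h. Just outside were Cth (0.70), the enzyme cystathionine gamma-lyase, Soga1 (0.70) and Ltbp4 (0.70), a matrix protein related to the member Ltbp3.

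The deepest dip was that of Polr2a, which encodes the largest, catalytic subunit of RNA polymerase II (ENSMUSG00000005198.15, GRCm38 chr11:69733997-69758633). Its libraries held 66.0, 63.5 and 60.2 CPM in GM, 16.5, 15.2 and 17.3 at 12 h and 16.9, 12.8 and 50.7 at 24 h. They held 16.8, 19.4 and 13.5 at 48 h, 10.2, 9.76 and 9.19 at 60 h and 55.5, 58.0 and 62.2 at 96 h. Every 60 h library lay below every library of the other groups, the third 24 h library lay far above its partners, and GM and 96 h stood 6.51 and 6.03 times above 60 h. Polr2a was the only one of 13 RNA polymerase II subunit genes among the members, all of which had a GM mean of at least 4. The median difference between GM and 60 h over those 13 genes was 0.18, near the 0.14 of all genes.

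Lrp1, a large endocytic receptor of the low density lipoprotein receptor family (ENSMUSG00000040249.15, chr10:127538157-127621148), had 1349.9, 1186 and 1188 CPM in GM, 457, 439 and 446 at 12 h and 517, 426 and 1090.3 at 24 h. The later libraries held 510.0, 497 and 423 at 48 h, 292, 301 and 266 at 60 h and 1109, 1129 and 1291 at 96 h. The 60 h libraries were again below all others, and the third 24 h library came close to the lowest 96 h library. Lrp1 was the only member among 10 genes of its family with a GM mean of at least 4, whose median difference between GM and 60 h was -0.27.

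Hspg2 encodes perlecan, a heparan sulfate proteoglycan of basement membranes (ENSMUSG00000028763.17, chr4:137468751-137570630). It had 400.0, 347 and 355 CPM in GM, 119, 100.3 and 102 at 12 h and 145, 108 and 315 at 24 h. It then had 170.3, 176 and 144 at 48 h, 102, 101 and 91.6 at 60 h and 564, 548 and 649 at 96 h. Here the 12 h and 60 h libraries overlapped, and each 96 h library was above each GM library, so that the level ended 0.67 above GM on the log2(CPM + 1) scale.

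Kmt2d, a histone H3 lysine 4 methyltransferase of enhancers (ENSMUSG00000048154.16, chr15:98831669-98874077), had 63.9, 51.4 and 53.8 CPM in GM, 23.7, 20.0 and 21.6 at 12 h and 31.6, 24.9 and 75.6 at 24 h. It had 32.1, 28.6 and 25.5 at 48 h, 17.8, 17.8 and 15.7 at 60 h and 66.9, 63.8 and 75.9 at 96 h. The lowest 96 h library and the highest GM library were level, and the third 24 h library lay within the range of the 96 h libraries. The departures of the third 24 h library were 1.72 for Polr2a, 1.40 for Kmt2d, 1.33 for Hspg2 and 1.21 for Lrp1 (log2).

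A stretch around an annotated start site of each of the 4 deepest dips is printed, on GRCm38.p6 and 5′ to 3′ along the gene. It runs from 220 bases before the start to 30 after it. Each stretch lies wholly within a wider ATAC-seq peak in GM and at 60 h, and the ends of those peaks are not shown. The starts used for Hspg2 and Kmt2d lie inside the gene coordinates given above, not at their 5′ end. Capitals mark the GC box letters GGGCGG on either strand, the sequence that Sp1-like factors recognise. The stretches are Polr2a at chr11:69758604-69758853, minus strand, Lrp1 at chr10:127621119-127621368, minus strand, Hspg2 at chr4:137468583-137468832, plus strand, and Kmt2d at chr15:98871176-98871425, minus strand.
Polr2a: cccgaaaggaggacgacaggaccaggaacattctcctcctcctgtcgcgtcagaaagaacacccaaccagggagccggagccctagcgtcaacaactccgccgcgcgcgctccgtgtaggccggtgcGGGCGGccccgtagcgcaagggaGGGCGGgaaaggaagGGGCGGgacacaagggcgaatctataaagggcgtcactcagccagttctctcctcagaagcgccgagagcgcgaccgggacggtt
Lrp1: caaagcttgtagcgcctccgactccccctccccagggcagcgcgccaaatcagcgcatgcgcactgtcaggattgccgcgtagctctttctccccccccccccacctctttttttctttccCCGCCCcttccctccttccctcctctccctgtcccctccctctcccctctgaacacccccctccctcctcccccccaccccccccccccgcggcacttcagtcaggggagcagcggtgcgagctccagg
Hspg2: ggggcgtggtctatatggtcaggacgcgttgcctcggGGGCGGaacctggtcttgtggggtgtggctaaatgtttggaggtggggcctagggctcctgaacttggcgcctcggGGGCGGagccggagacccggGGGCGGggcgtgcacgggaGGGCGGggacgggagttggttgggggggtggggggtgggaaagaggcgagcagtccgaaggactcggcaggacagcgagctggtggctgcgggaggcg
Kmt2d: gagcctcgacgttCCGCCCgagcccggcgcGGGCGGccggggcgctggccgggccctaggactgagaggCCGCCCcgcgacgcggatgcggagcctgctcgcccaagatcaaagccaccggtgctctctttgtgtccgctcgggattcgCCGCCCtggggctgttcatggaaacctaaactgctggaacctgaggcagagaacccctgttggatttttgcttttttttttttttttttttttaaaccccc

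**Figure D3:**
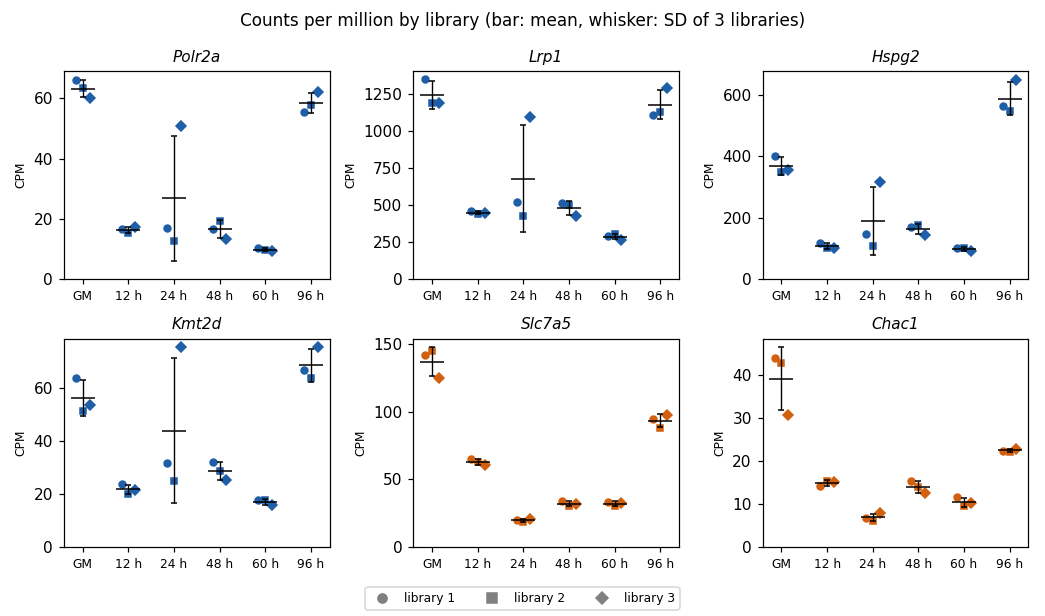
Each panel is a member, with CPM on the y axis from 0 and the 6 groups on the x axis; points are libraries, bars means and whiskers SDs of 3 libraries. In Polr2a, Lrp1, Hspg2 and Kmt2d (blue) the third 24 h library stands near the GM or 96 h level, at 50.7 CPM in Polr2a, while in Slc7a5 and Chac1 (orange) the 24 h libraries lie together and are the lowest of the course.

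Of the lists compared, chromatin regulators held the most members, 14 of the 47 genes of that list with a GM mean of at least 4. It was also the list with the most such genes. Over all genes with that GM mean, 88 of 7636 were members, and the list counts here and below stand beside that share. The lists were chosen with earlier results of these data known, so that these counts are descriptions and were not tested. By level in GM they included Trrap, Hcfc1, Ep400, Kmt2d, Kmt2c, Ep300, Crebbp, Kmt2a, Baz2a, Srcap, Arid1a, Tet3 and Kmt2b. All of the KMT2 methyltransferases among them dipped by between 0.71 (Kmt2c) and 1.66 (Kmt2d). The acetyltransferases Crebbp, with 45.8 ± 2.88 CPM in GM, 21.4 ± 1.10 at 60 h and 47.0 ± 0.583 at 96 h, and Ep300, with 49.5 ± 3.92, 25.6 ± 1.68 and 56.9 ± 2.75 (mean ± SD, n = 3), dipped by 1.06 and 0.92. Trrap, the scaffold of histone acetyltransferase complexes and a PI3K-like kinase relative, went from 114 ± 7.91 in GM to 56.2 ± 2.16 at 60 h and 103 ± 7.11 at 96 h. Its complex partner Ep400, a remodeller, went from 68.9 ± 3.27 to 30.1 ± 0.835 and 62.7 ± 2.98. Hcfc1, a cofactor that bridges transcription factors to chromatin enzymes, went from 74.8 ± 4.33 to 28.1 ± 2.45 and 49.9 ± 0.822, so that it stayed below GM. Arid1a, a subunit of the SWI/SNF remodeller, dipped by 1.29.

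Other members had more scattered roles. Plec, which links intermediate filaments to membranes and other filaments, went from 1790.4 ± 147 CPM in GM to 763 ± 21.2 at 60 h and stood at 1708 ± 98.3 at 96 h. With the focal adhesion protein Tns2 (dip 0.87) it made 2 of 35 large cytoskeletal linkers. Of 34 basement membrane and matrix genes, Lama5, a laminin alpha chain (dip 0.94), and Ltbp3, which binds latent TGF-beta (dip 1.36), joined Hspg2. The giant ubiquitin ligases Ubr4 and Huwe1 and the deubiquitinase Usp34 were 3 of 19 genes of their list, with Ubr4 at 238 ± 11.5 CPM in GM, 106 ± 3.10 at 60 h and 250.2 ± 20.4 at 96 h. Huwe1 stood at 335 ± 9.38, 179.6 ± 5.47 and 342 ± 10.2 in the same groups.

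Larp1, a regulator of mRNAs of the translation machinery, and the RNA-binding proteins Prrc2a and Prrc2c were 3 of 22 translation and TOR genes, with dips of 0.88, 1.14 and 0.84. Srrm2, a spliceosome-associated protein (dip 1.06), and Tnrc18 (1.04) were 2 of 31 genes of the list of RNA processing. For Tnrc18 no role in RNA processing is claimed here. Ptprf, a receptor tyrosine phosphatase (1.31), and Plxna1, a semaphorin receptor (0.74), were 2 of 24 receptors. Piezo1, a mechanically gated cation channel, was 1 of 7 channels (0.84), and Vps13c, a lipid transfer protein, 1 of 22 trafficking genes (0.91). The lists of nuclear pore genes (14), large metabolic enzymes (7) and giant sarcomere genes (3) held no member. Of the 44 members in no list, Ptpn23, an endosomal sorting protein, Zmiz1, a coactivator related to SUMO ligases, and Cbl, a ubiquitin ligase for receptor kinases, had the deepest dips, each 1.26.

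Ago2, the Argonaute protein that carries small RNAs, went from 99.1 ± 5.74 CPM in GM to 47.5 ± 2.42 at 60 h and 109 ± 4.12 at 96 h (mean ± SD, n = 3). Transcription factors and cofactors outside the lists included Nfic (dip 1.13), Rere (1.02), Spen (0.92), Zfhx3 (0.87) and Zbtb7a (0.80), and histone-modifying enzymes included the acetyltransferase Kat6a (0.84) and the methyltransferase Dot1l (0.77). Genes of actin and adhesion included Palld (1.10), which bundles actin, Inf2 (1.00), Actn4 (0.76), an actinin, and Itga5 (0.73), the fibronectin receptor subunit. Signalling genes included Wnk1, an ion transport kinase, with 192 ± 9.48 CPM in GM, 106 ± 1.86 at 60 h and 249.7 ± 6.12 at 96 h, and Nf1, a Ras GTPase-activating protein, with 101 ± 5.50, 60.7 ± 3.21 and 107 ± 2.80. Wnk1 thus ended above GM, as did 5 others named above, while Nf1 returned to its GM level. The third 24 h library departed by 1.02 in Palld, 1.03 in Rere, 0.98 in Zfhx3 and 0.73 in Wnk1 (log2), and by less in Ago2 (0.59), Zbtb7a (0.53), Itga5 (0.49), Dot1l (0.46) and Nfic (0.46), which lacked a gap of 0.5 to each partner.

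A set of 10 members forms the second kind. They belong to a list of 41 ATF4 and amino acid supply genes, 38 of them with a GM mean of at least 4. That list was compiled after the members' values had been seen, so that their number supports nothing by itself. Slc7a5 is the light chain of a transporter of large neutral amino acids and Slc3a2 its heavy chain, Slc7a1 carries cationic amino acids, Slc7a11 exchanges cystine for glutamate and Slc6a9 carries glycine. Iars charges tRNA with isoleucine, Mthfd2 is a mitochondrial enzyme of the folate cycle, Chac1 degrades glutathione, Trib3 is a pseudokinase and Sesn2 a leucine sensor that restrains TOR. Their median difference from GM was -1.89 at 24 h, -1.45 at 48 h and -0.61 at 96 h, and the median difference between GM and 60 h was 1.60. The lowest group was 24 h for 7 of the 10, and 60 h for Slc6a9, Slc7a1 and Sesn2.

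Slc7a5 had 142, 145 and 125 CPM in GM, 65.2, 62.5 and 60.4 at 12 h and 19.9, 18.5 and 20.9 at 24 h. It had 34.2, 30.4 and 31.8 at 48 h, 33.4, 30.1 and 32.6 at 60 h and 94.9, 88.3 and 97.5 at 96 h. The 24 h libraries lay together and below all others, and 48 and 60 h overlapped. Chac1 had 43.9, 42.7 and 30.7 CPM in GM, 14.1, 15.3 and 15.2 at 12 h and 6.67, 6.13 and 7.80 at 24 h. It had 15.4, 13.9 and 12.5 at 48 h, 11.5, 9.43 and 10.2 at 60 h and 22.3, 22.1 and 22.9 at 96 h. Here too the 24 h libraries were the lowest, and the 12 h and 48 h libraries overlapped.

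Mthfd2 had 136, 144 and 124 CPM in GM, 28.4, 30.02 and 28.7 at 24 h and 45.7, 47.5 and 45.3 at 48 h. It had 65.5, 53.4 and 60.8 at 60 h and 108, 117 and 103 at 96 h, so that its level was already above 24 h at each later time. Trib3 went from 78.6, 85.8 and 66.3 in GM to 6.15, 5.61 and 7.52 at 24 h and 7.94, 8.28 and 7.91 at 60 h, and reached 15.5, 17.6 and 16.8 at 96 h. Slc7a11 went from 48.8, 50.3 and 42.1 in GM to 3.23, 3.21 and 3.72 at 24 h and 4.88, 3.28 and 4.18 at 60 h, and reached 8.98, 7.90 and 6.50 at 96 h. These last 2 members came back only in part, with 96 h means -2.14 and -2.46 from GM (log2). Slc6a9, the fifth deepest dip of all members, returned fully, from 26.2 ± 3.08 in GM to 8.04 ± 0.514 at 60 h and 26.7 ± 2.59 at 96 h (mean ± SD, n = 3).

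**Figure D4:**
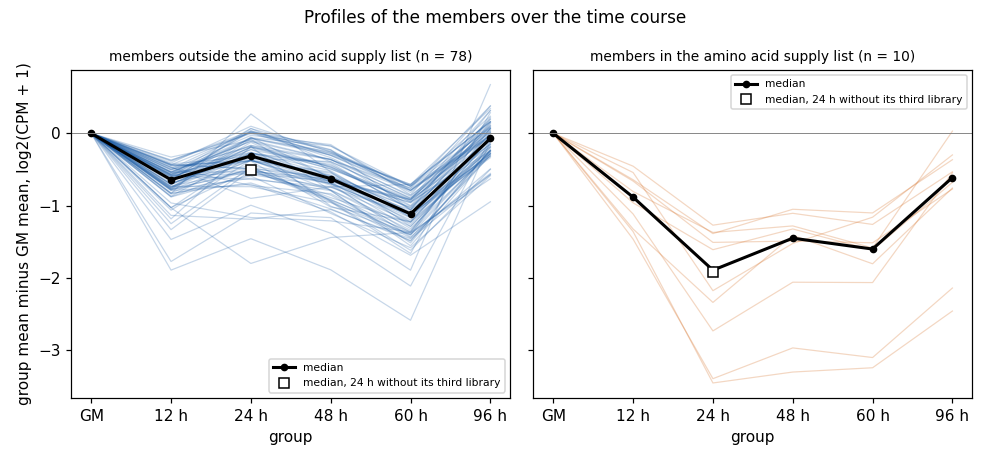
Group means minus the GM mean, as log2(CPM + 1), for the 78 members outside the amino acid supply list (left) and the 10 in it (right); thin lines are genes, black lines medians, and the open square is the 24 h median without the third library. The left median has its low at 60 h, the right one at 24 h, with -1.89 against GM.

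The third 24 h library did not depart for these 10 genes as it did for the rest. Its median departure was 0.13 (-0.03 to 0.31) over the 10 and 0.64 (0.03 to 1.72) over the 78 others, and all 46 members with a gap of at least 0.5 were among the 78. The difference between both sets was not tested, and the list was compiled after the members' values had been seen. Gm4070, Phospho1 and Phf10, which are in no list, departed by 0.08, 0.07 and 0.03.

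The step from 24 h to 48 h is the only pair of groups that the choice of members did not use, and it was tested. Of the 88 members 9 were higher and 27 lower at 48 h, and 52 were not called (edgeR's quasi-likelihood test, Benjamini-Hochberg adjusted p under 0.05 over 15303 genes). Over all genes tested, 17.5% were higher and 14.8% lower. The members' median log2 fold change was -0.23 and that of all genes 0.02. The count of lower members rests on single libraries. Without the third 24 h library it was 7, all of them among the 27, with a median of 0.01. Without the second 24 h library it was 62, and without the third 48 h library 12. Over all genes tested, 13.8% were lower in each of those fits. The count of higher members was 11 without the third 24 h library, the 9 among them, when 14.4% of all genes were higher and 13.8% lower.

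The members that rose were led by the amino acid supply genes. Chac1 rose by 1.08 ± 0.13 (SE, adjusted p = 8.79e-07) on the log2 scale, Slc7a5 by 0.75 ± 0.07 (SE, adjusted p = 6.07e-08) and Mthfd2 by 0.72 ± 0.07 (SE, adjusted p = 7.62e-08), each higher in 3 of 3 libraries at 48 h than in any at 24 h. Slc3a2, Slc7a1, Trib3 and Iars rose as well, by between 0.22 and 0.53. In all, 7 of the 10 were higher and none lower, with and without the third 24 h library. Since their list was compiled after the members' values had been seen, this count is a description and supports nothing by itself. Slc6a9, Slc7a11 and Sesn2 were not called, at 0.16, 0.24 and 0.08. Of the whole list of 41 genes, 19 were higher and 5 lower (16 and 5 without the third 24 h library). Outside that list, Acot2, a mitochondrial acyl-CoA thioesterase, rose by 0.44 and Phf10, a subunit of a SWI/SNF remodeller, by 0.21.

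The largest falls were those of Anpep, Gm4070 and Zmiz1. Anpep, the membrane aminopeptidase N, had 14.0, 11.9 and 21.0 CPM at 24 h and 8.13, 8.30 and 8.07 at 48 h, a fall with a log2 change of -0.88 ± 0.14 (SE, adjusted p = 4.22e-05). It was -0.64 ± 0.10 (SE, adjusted p = 5.34e-05) without the third 24 h library. Gm4070 had 20.6, 21.2 and 22.2 at 24 h, its highest group, and 11.9, 12.8 and 10.8 at 48 h, a log2 change of -0.80 ± 0.07 (SE, adjusted p = 1.21e-08). It is a gene model among near-identical large GTPase genes, so that the counting could have split its reads. Zmiz1 changed by -0.77 ± 0.18 (SE, adjusted p = 0.00270), and by -0.37 ± 0.10 (SE, adjusted p = 0.00920) without the third 24 h library. Along with these 3, Map1a (a microtubule-associated protein), Phospho1 (a phosphatase), Inf2 (a formin) and Atxn2l (an RNA-binding protein) were the 7 lower with and without that library.

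The deepest dips were not called between 24 h and 48 h. Polr2a changed by -0.61 ± 0.29 (SE, adjusted p = 0.120), Lrp1 by -0.45 ± 0.19 (SE, adjusted p = 0.0855), Kmt2d by -0.54 ± 0.24 (SE, adjusted p = 0.0884) and Hspg2 by -0.15 ± 0.22 (SE, adjusted p = 0.656) (edgeR). Without the third 24 h library the values were 0.19 for Polr2a, 0.04 for Lrp1, 0.06 for Kmt2d and 0.40 for Hspg2, and Hspg2 was then called higher (adjusted p = 0.0117). Without the first 24 h library, or without the second, Polr2a, Lrp1 and Kmt2d were called lower, Polr2a at -0.88 and -0.96, Lrp1 at -0.63 and -0.69, and Kmt2d at -0.76 and -0.84. Of 53 tested chromatin regulators, 2 were higher and 6 lower (2 and 3 without the third 24 h library), and of 42 tested matrix genes, 11 were higher and 16 lower (14 and 12). Of 13 tested RNA polymerase II subunits, 2 were higher and 2 lower (1 and 3). All 8 giant sarcomere genes tested, none a member, were higher with and without that library.

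**Figure D5:**
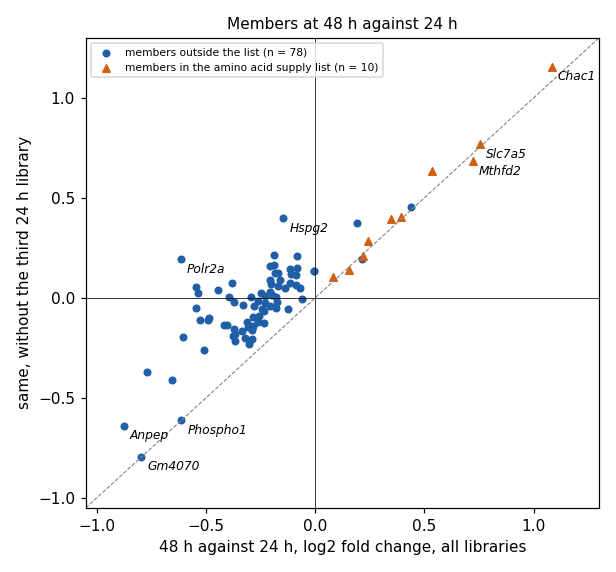
Each point is a member; the x axis is its log2 fold change at 48 h against 24 h with all libraries and the y axis the same without the third 24 h library, with equality dashed. The 10 amino acid supply genes (orange) and Gm4070 and Phospho1 lie close to the line, while most other members lie above it, Polr2a moving from -0.61 to 0.19.

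The genes of the members are long. All 88 matched a RefSeq gene on GRCm38.p6, spread over 20 chromosomes with at most 9 on 1 of them, and 74 had a start site in the promoter table. Their median genomic span was 67322 bases, 2.61 times the 25817 of the background genes that matched. The quartiles were 25760.5 and 103049 for the members and 11502 and 57785 for the background. The 10 amino acid supply genes had a median span of 23424 and the 78 others of 70196. Median GC content from 250 bases before to 50 after the start was 66.2% in the members and 62.0% in 6176 background genes, 58.3% in the amino acid supply members and 68.0% in the others. The GC box stood in 61 of the 74 (82.4%, 95% Wilson interval 72.2 to 89.4), in 74.4% of the background genes and in 35.7% of all 32851 windows of the table. The interval includes the background genes' share. A gene with several windows was counted if any of them held the box. The last share is of single windows, so that it is not on the same unit.

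ATF4 binds with C/EBP partners at a composite element whose core is TGATGNAA. That core was found on either strand in 4 of the 74 members with a window (5.41%, 95% Wilson interval 2.12 to 13.1), in 166 of the 6176 background genes (2.69%) and in 3.97% of all windows. Again a gene was counted if any of its windows held the core, while the last share is of single windows. The interval includes the background share. All 4 are among the 9 amino acid supply members with a window, and none among the 65 others. That list was named for ATF4 and compiled after the members' values had been seen, so this split supports nothing by itself. Genes of the list that are not members are not compared here. The 4 stretches are shown since they are the members that carry the core, with it in capitals, over the same 220 bases before to 30 after the start: Slc7a11 at chr3:50443584-50443833, minus strand, Chac1 at chr2:119351022-119351271, plus strand, Trib3 at chr2:152344031-152344280, minus strand, and Iars at chr13:49681910-49682159, plus strand.
Slc7a11: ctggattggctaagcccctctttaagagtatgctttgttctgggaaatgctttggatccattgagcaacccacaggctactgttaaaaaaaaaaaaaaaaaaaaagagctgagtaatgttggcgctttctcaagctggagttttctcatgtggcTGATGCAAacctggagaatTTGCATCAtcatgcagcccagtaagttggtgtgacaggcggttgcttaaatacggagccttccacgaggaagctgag
Chac1: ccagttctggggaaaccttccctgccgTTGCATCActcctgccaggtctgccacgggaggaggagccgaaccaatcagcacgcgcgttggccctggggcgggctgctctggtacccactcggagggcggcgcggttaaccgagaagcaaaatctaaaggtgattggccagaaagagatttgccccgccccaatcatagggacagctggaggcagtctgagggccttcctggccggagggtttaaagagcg
Trib3: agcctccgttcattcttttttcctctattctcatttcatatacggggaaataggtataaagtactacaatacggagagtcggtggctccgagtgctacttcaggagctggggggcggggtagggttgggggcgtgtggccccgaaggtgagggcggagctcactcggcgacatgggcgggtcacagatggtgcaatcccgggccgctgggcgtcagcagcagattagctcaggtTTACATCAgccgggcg
Iars: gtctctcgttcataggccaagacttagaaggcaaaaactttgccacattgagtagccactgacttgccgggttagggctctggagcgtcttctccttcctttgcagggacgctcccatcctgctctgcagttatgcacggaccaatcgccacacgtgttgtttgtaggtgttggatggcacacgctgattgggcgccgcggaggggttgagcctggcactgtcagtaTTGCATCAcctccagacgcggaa
Slc7a11 held TGATGCAA and TTGCATCA, beginning 66 and 47 bases before the start, and Chac1 held TTGCATCA beginning 193 before it. Trib3 held TTACATCA from position 15 of the transcript and Iars TTGCATCA from position 8. A match describes these letters and not a bound site, and windows without one say only that the letters are not there.

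Accessible chromatin at the starts of the members was present in both conditions assayed. A deposited ATAC-seq peak overlapped the start window in 73 of 74 members in GM, Ptprf being the exception, and in all 74 at 60 h, against 97.7% of background genes in either condition. The authors' fold enrichment of that peak had a median of 4.79 in GM and 4.73 at 60 h for the members, and of 6.11 and 6.12 for the background. At Polr2a, whose RNA was 6.51 times higher in GM, the peak's fold was 4.61 in GM and 4.79 at 60 h. It was 4.09 and 3.56 at Lrp1, 2.47 and 2.74 at Hspg2, and 3.04 and 3.36 at Kmt2d. At Slc7a11 the values were 6.51 and 4.11. Peaks were called per condition, and that of Polr2a was 2414 bases wide in GM and 1881 at 60 h. The folds of a gene in GM and at 60 h thus need not cover the same stretch. The authors gave 1 peak list per condition for 2 libraries, so that these values have no replicate spread and no difference between conditions was tested.

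Start sites of 52 of the 74 members (70.3%) lay in a deposited 25 kb loop anchor of GM and of 50 (67.6%) in one of 60 h, against 67.4% and 58.8% of background genes. Their 95% Wilson intervals, 59.1 to 79.5 in GM and 56.3 to 77.1 at 60 h, include the background shares. Domain boundaries held 2 members in GM (Ubr4 and Iars, 2.70%) and 1 at 60 h (Prrc2c, 1.35%), against 6.36% and 6.38% of background genes. The 95% Wilson intervals, 0.744 to 9.33 in GM and 0.239 to 7.27 at 60 h, include the background shares. Within 20 kb of a boundary lay 2 of the 74 members in GM and 2 at 60 h (2.70%, 0.744 to 9.33 in each), against 12.3% and 12.9% of background genes, shares above those intervals. No test of these differences was made, and all of these intervals cover counting error only.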

How the data were processed

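RNA was measured in 18 libraries, strand specific per the labels. The authors deposited a table of whole-number read counts per gene. Tools for RNA in the submitters' processing notes are RSEM 1.3.0, STAR, edgeR and DESeq2. No label or header gives how whole numbers arose or whether counting used strand. Of the 49089 genes, 22315 had no count in any library. For ATAC-seq the authors deposited 1 broad peak list per condition with a fold enrichment (a ratio) and a −log10 q-value per peak, and the processing notes name Bowtie2 2.2.6, SAMtools 1.9, deepTools 2.5.2 and MACS2 2.2.7. For Hi-C, processed with HiC-Pro 2.9.0 per the same notes, they deposited boundaries on 40 kb bins with a score, which was not used, and loops with 25 kb anchors. The files are on mm10, the same assembly as RefSeq's GRCm38.p6.

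The members and gene lists were chosen with earlier results of these data known, and the amino acid supply list after the members' values were seen. CPM was computed on library totals with a pseudocount of 1. Differences between 48 h and 24 h were tested with edgeR 4.0.16 in R 4.3.3 (quasi-likelihood, TMM scaling, filterByExpr, 15303 genes, all 18 libraries and 12 residual degrees of freedom). On simulated counts for this comparison the fit recovered 83.6% of 67 genes changed 1.5-fold, 92.5% of 67 changed 2-fold and all 66 changed 4-fold, with 13 false calls among the 15303 genes. The changed genes were drawn from those with a mean above 1 CPM, and no other gene or group was changed. They were far fewer than the genes called in the real comparison. Whether these rates hold for the members, for which the third 24 h library stood apart, was not tested. Replicates were separate libraries: the chi-square per degree of freedom between pairs was between 5.06 and 53.2. Named genes are the 12 deepest dips, the 5 highest GM means, up to 4 members per list by GM mean, the 3 largest called changes each way, the 3 genes on each side of the limit, and Polr2a, Hspg2, Lrp1 and Kmt2d. Some of the genes this rule picks are not reported here. Other names, among them the members highest at 24 h or above GM at 96 h, were chosen after their values were seen. Alternatives covered scaling, pseudocount, filters, limits, DESeq2 1.42.0, a replicate block and leaving out each library of the groups compared. Gm15800 is Hectd4 in RefSeq, and Gm20716 is a readthrough gene there, whose reads its neighbours may share.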

Additional observations from a re-analysis of the deposited data

How the results depend on the processing

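The choice of members depended most on the size of the dip: 157 genes met the rule at 0.5 and 34 at 1, against 88 at 0.7. Scaling, pseudocount, limits on GM and 12 h, group medians and leaving out each library of GM, 12 h, 60 h and 96 h gave between 62 and 104 members. There were 74 under TMM scaling and 79 on protein-coding totals (74 and 67 of them among the 88). Between 24 h and 48 h, 59 members were lower with no filter on low counts and 12 when only the 6 libraries of both times were fitted, against 27. Over all genes tested, 9.15% and 16.7% were lower in those fits, against 14.8%. Leaving out each 24 h or 48 h library in turn, and none of the other groups, gave between 7 and 62 lower members. Over all genes tested, between 12.4% and 14.3% were lower in those fits. The members' median log2 fold change lay between -0.38 and 0.0056, the highest without the third 24 h library. Over the same fits Polr2a lay between -0.96 and 0.19, Hspg2 between -0.43 and 0.40, Kmt2d between -0.84 and 0.056, and Lrp1 between -0.69 and 0.041. Among these fits the sign was positive only without the third 24 h library, whose absence is the construction of that fit. With no filter these 4 genes were called lower, and the cause was not tested. A replicate block, with the replicate number as a factor, gave 9 higher and 25 lower members and 2613 higher and 2210 lower genes, and it changed no named call. Correlations of the deviations of same-numbered 24 h and 48 h libraries were -0.07, 0.10 and -0.10, and not every library correlated best with its own number. With 3 libraries per group, such correlations cannot show whether same-numbered libraries share more than a number. Higher members numbered 9 in every alternative except without the third 24 h library (11). Over all genes tested, between 8.85% and 18% were higher in these alternatives. That library's departure was 0.53 under TMM scaling and 0.55 on protein-coding totals. An ATAC peak lay within 1000 bases of the start in 100% of members in GM (98.3% of background genes). Within 20 kb of a loop anchor lay 90.5% of members in GM (90.9% of background genes) and 91.9% at 60 h (84.8%), and within 20 kb of a boundary 2.70% in GM (12.3%) and 2.70% at 60 h (12.9%). A comparison of protein lengths was planned and not run. The design cannot test the dip itself, since the same libraries chose the members, and the 3 libraries per group limit the precision of each mean.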
